A study of Mus musculus with 8 samples.

Results

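The RNA modification enzymes of the mouse heart were examined in RNA-seq of 8 hearts, 4 WT and 4 in which Mettl3 had been deleted in cardiomyocytes. The WT hearts carried the genotype Mettl3lox/lox, with both alleles floxed and no Cre. The Mettl3 KO hearts carried Mettl3lox/lox together with the alphaMHC-MerCreMer transgene, a tamoxifen-activated Cre that is driven by a cardiac myosin heavy chain promoter and acts in cardiomyocytes only. Mice of both genotypes were injected with tamoxifen at 10 to 16 weeks of age. The WT hearts lacked the transgene, so loss of Mettl3 and presence of the active Cre cannot be told apart in this comparison. Other cells of the heart do not express this Cre.

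Members were all protein-coding genes of the Mettl, Alkbh, Trmt, Nsun, Pus and Adat name families together with a set of genes chosen by name, among them Fto, Wtap, Virma, Nop2 and Cdk5rap1, provided that their mean value over the 8 hearts was at least 1. The names took 78 genes, of which 75 were protein-coding, and all 75 reached the minimum, out of 23045 genes in the table and 20313 that reached it. Trmt61b, listed as a lncRNA, Mettl5os and the pseudogene Trmt112-ps2 were not protein-coding in the annotation used and were left out. Mean normalized read counts of the members ran from 1.62 to 594.5 with a median of 74.1, and 5 members had a mean under 10.

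Cells decorate RNA after transcription with many small chemical groups. N6-methyladenosine (m6A) is placed on mRNA by a writer complex in which METTL3 is the catalytic subunit and METTL14 its structural partner, is removed by the demethylases FTO and ALKBH5, and is read by YTH proteins and, by some accounts, by IGF2BP proteins. Most other modifications lie on tRNA and ribosomal RNA, where methyltransferases of the TRMT, NSUN and METTL families, pseudouridine synthases and deaminases shape folding, decoding and ribosome assembly, both in the cytosol and inside mitochondria. Heart muscle is rich in mitochondria and depends on their own tRNA and ribosomes for respiratory chain subunits.

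By their estimated reads, libraries of both genotypes were of like depth. Summed normalized read counts, which scaling itself draws together, were 2839589 to 2881849 in WT and 2840184 to 2916986 in Mettl3 KO hearts. The number of reads behind them, estimated from the whole numbers that rounding skips or doubles in each column, was 2730653 to 3062212 and 2631234 to 3053305. Cardiomyocyte markers such as Myh6, Tnnt2 and Ttn were abundant in all 8 hearts, with summed values of 83740 to 90345 in WT and 82774 to 92693 in Mettl3 KO hearts, and 0 of 8 passed the test. Other cell types did move with genotype. Of 8 fibroblast markers 7 rose (sums of 3648 to 4172 against 4711 to 5671), of 8 endothelial markers 4 fell (5172 to 5361 against 4466 to 4867), and of 6 atrial markers 5 rose (808 to 1022 against 1036 to 1957). The atrial rise was uneven, since Mettl3 KO heart 1 lay within the WT range for Myl7, Myl4, Sln and Bmp10, and of the 6 only Nppa did not overlap between the groups. The WT hearts were uneven too. WT heart 3 was at 0 for Myl7, 17 for Myl4 and 0 for Sln. The other WT hearts were at 21 to 26, 110 to 114 and 4 to 12. Bmp10, an atrial gene, was at 0 in all WT hearts and at 0, 195, 158 and 358 in Mettl3 KO hearts 1 to 4. Markers of macrophages (0 of 8), of smooth muscle and pericytes (0 of 7) and of skeletal muscle (0 of 7) did not pass. Fits with the atrial or the fibroblast level as a covariate are given below, and the part of the endothelial shift was not tested. In heart samples fewer cells of a type and less RNA per cell cannot be told apart. How much atrial tissue each sample held is not given by the sample titles and was not tested.

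Across the whole group, few RNA modification genes differed between Mettl3 KO and WT hearts. With limma, 11 of the 75 members passed an adjusted p of 0.05 over all 20313 genes tested, 8 higher (Alkbh5, Mettl16, Mettl9, Nop2, Trmt10c, Trmt12, Trmt5 and Wtap) and 3 lower (Mettl3, Trmt2b and Cdk5rap1) in Mettl3 KO than in WT hearts. That share, 14.7%, or 13.5% of 74 members without the deleted gene, stood beside 7.91% of all genes tested and 10% of the 14392 protein-coding genes tested, of which 6.36% were higher and 3.65% lower. Without Mettl3 KO heart 3 the count was 6, with 4 higher and 2 lower. A covariate of the mean log2 level of the atrial genes Myl7, Myl4, Sln and Bmp10 was chosen after the data were seen. With it the count was 6, with 5 higher and 1 lower, namely Mettl3. That atrial level was 1.04 to 3.82 in WT hearts and 3.72, 6.72, 6.72 and 7.49 in Mettl3 KO hearts 1 to 4. The genotypes overlapped in it only through Mettl3 KO heart 1, so this fit separates the atrial level from the genotype poorly. Absolute log2 fold changes of the 11 ran from 0.21 to 0.89. The median log2 fold change was 0.02 over the 75 members, 0.0034 over protein-coding genes and -0.01 over all genes tested. Values of the 2 groups did not overlap for 11 members, which is 14.7% of them against 14.2% of protein-coding genes. With the mean log2 level of the fibroblast markers of each heart as a covariate, chosen after the data were seen, 0 of 75 members passed. Standard errors were then wider, with 0.27 for Mettl3 against 0.10, and the log2 fold change was -0.52 for Mettl3, 0.99 for Trmt12, 0.42 for Trmt10c, 0.14 for Wtap and 0.02 for Cdk5rap1. That level did not overlap between the genotypes, so the fit cannot tell it apart from the genotype itself. The other 64 members lay between -0.40 and 0.77, with adjusted p from 0.101 to 0.979 (limma), and the widest of these belonged to genes with few reads.

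The depth set what could be seen. The half-width of the 95% confidence interval of the log2 fold change had a median of 0.79 for the 9 members with a mean under 20, of 0.34 for the 25 between 20 and 60, of 0.22 for the 21 between 60 and 150, and of 0.14 for the 20 above 150. Calls numbered 0, 1, 4 and 6 in these classes. The plot of all members' log2 fold changes shows the widening of the intervals for genes of low level.

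**Figure D1:**
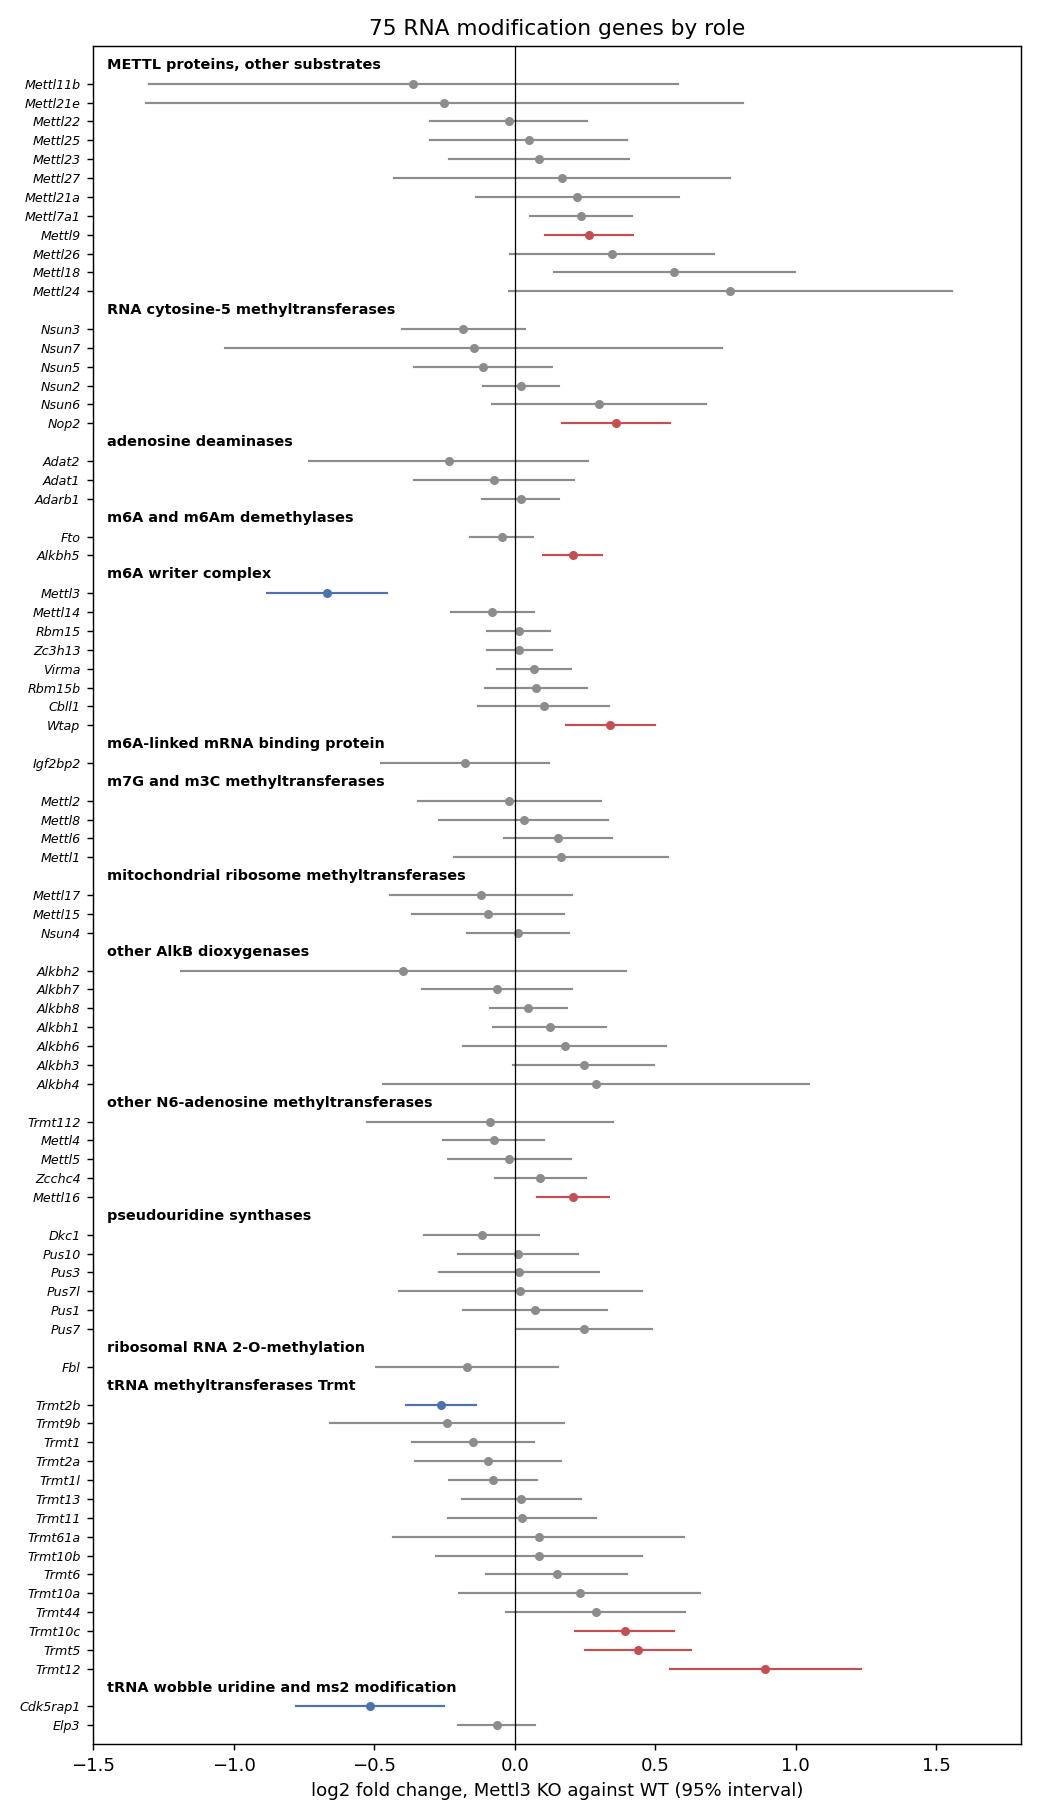
Log2 fold change of each of the 75 members in Mettl3 KO against WT hearts (horizontal axis), ordered by role; each point is the limma estimate from 4 hearts per group and each bar its 95% confidence interval. Of these, 8 members passed the test as higher and 3 as lower, and most of the other intervals span 0.

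The first question was how the m6A writer complex responded when its catalytic subunit was deleted. Mettl3 fell and Wtap rose, whereas the 6 other subunits had log2 fold changes of -0.08 to 0.10 and did not pass. Mettl3 (ENSMUSG00000022160, mm39 chr14:52532298-52542585, minus strand) had normalized read counts of 105, 133, 118 and 107 in WT hearts and of 74, 68, 69 and 78 in Mettl3 KO hearts. Every Mettl3 KO heart lay below every WT heart, and the mean of 72.2 ± 4.65 (SD, n = 4) was 62.4% of the WT mean of 116 ± 12.8 (SD, n = 4). The log2 fold change was -0.67 with a standard error of 0.10 (limma adjusted p = 0.000184). These values count reads over the whole gene, so exons outside the deleted stretch and transcripts of cells without Cre both enter them.

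Wtap (ENSMUSG00000060475, chr17:13185683-13213056, minus strand) encodes the adaptor that holds the catalytic pair to the rest of the complex and to nuclear speckles. Its normalized read counts were 171, 140, 149 and 165 in WT hearts and 196, 198, 201 and 195 in Mettl3 KO hearts. The 4 Mettl3 KO hearts sat close together and all lay above the highest WT heart. Its rise on the log2 scale was 0.34 with a standard error of 0.08 (limma adjusted p = 0.00639). With the mean log2 level of the atrial genes Myl7, Myl4, Sln and Bmp10 in each heart as a covariate, chosen after the data were seen, the log2 fold change was 0.29 with a standard error of 0.12 (adjusted p = 0.193).

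Mettl14, the partner that Mettl3 binds, had normalized read counts of 196, 196, 178 and 179 in WT and of 175, 176, 185 and 172 in Mettl3 KO hearts. The groups overlapped, with a log2 fold change of -0.08 and a 95% confidence interval of -0.23 to 0.07 (limma adjusted p = 0.602). The interval of Mettl14 thus left room for a fall of at most 0.23 on the log2 scale, against the estimate of -0.67 for Mettl3.

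Virma, the large scaffold of the regulatory part, had normalized read counts of 305, 281, 316 and 273 in WT hearts and of 326, 301, 305 and 299 in Mettl3 KO hearts, a log2 fold change of 0.07 (limma adjusted p = 0.614). The groups overlapped. Zc3h13, which anchors the complex in the nucleus, counted 567, 611, 580 and 604 against 534, 586, 638 and 636, and its log2 fold change was 0.02 (limma adjusted p = 0.925). The Mettl3 KO hearts bracketed the WT hearts on both sides.

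The RNA-binding subunits Rbm15 and Rbm15b direct the complex to its transcripts. Rbm15 read 350, 351, 348 and 344 in WT hearts against 357, 354, 362 and 335, and Rbm15b read 180, 174, 145 and 156 against 156, 160, 188 and 187. Both overlapped between the genotypes. Their log2 fold changes were 0.01 (95% confidence interval -0.10 to 0.13, limma adjusted p = 0.927) and 0.08 (-0.10 to 0.26, adjusted p = 0.703). Cbll1, the E3 ligase-type subunit also known as Hakai, read 72, 80, 76 and 86 against 73, 99, 79 and 88, and overlapped as well, with a log2 fold change of 0.10 (limma adjusted p = 0.688).

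Per kilobase of merged exon, the WT hearts held most Zc3h13 among the writer genes, with 95.9 normalized read counts per kilobase, followed by Rbm15 with 80.2. Mettl3 came next with 57.2 and dropped to 35.7 in Mettl3 KO hearts. Virma stood at 41.2, Wtap at 31.9, Mettl14 at 25.4, Rbm15b at 25.1 and Cbll1 at 19.6. The order depends on the length used. Per kilobase of the representative transcript, whose exons leave out alternative ones, Wtap stood at 75.8 and Mettl14 at 68.3 in WT hearts, both above Mettl3, which stayed at 57.2. Under either length Zc3h13 and Rbm15 were highest in WT hearts, and Mettl3 was above Virma in WT hearts and below it in Mettl3 KO hearts.

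**Figure D2:**
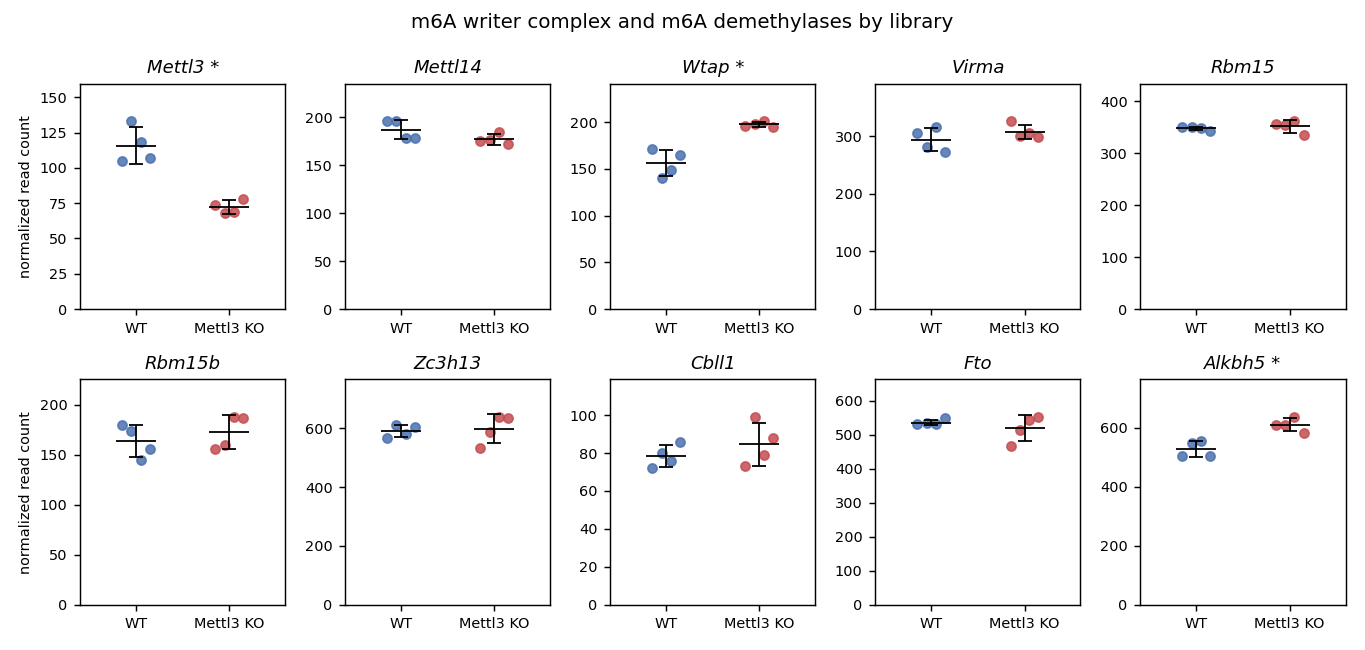
Normalized read counts (vertical axes, starting at 0) of the m6A writer subunits and the demethylases in each WT and Mettl3 KO heart. Points are hearts, the long bar is the mean and the whiskers are 1 SD (n = 4 per group). Asterisks mark genes with a limma adjusted p under 0.05. Mettl3 sits lower and Wtap and Alkbh5 sit higher in all Mettl3 KO hearts, whereas Mettl14, Virma and Fto overlap.

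The next comparison concerned the proteins that erase or read m6A. Alkbh5 rose in Mettl3 KO hearts, and Fto, the other demethylase and of like read count, did not pass the test. Alkbh5 (ENSMUSG00000042650, chr11:60427207-60449338, plus strand) encodes the nuclear m6A demethylase. It counted 505, 547, 555 and 505 in WT hearts and 610, 609, 636 and 582 in Mettl3 KO hearts. No value was shared between the groups, and the mean rose to 115% of WT, a log2 fold change of 0.21 with a standard error of 0.05 (limma adjusted p = 0.0121). Without Mettl3 KO heart 3 the adjusted p was 0.0608, and without WT heart 1 it was 0.0522.

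Fto, which removes m6A and the cap-adjacent m6Am, counted 530, 534, 530 and 548 in WT hearts and 467, 515, 544 and 552 in Mettl3 KO hearts. Mettl3 KO heart 1 was the lowest and heart 4 the highest of all 8. The log2 fold change was -0.05, with a 95% confidence interval of -0.16 to 0.07 (limma adjusted p = 0.713). The difference between Alkbh5 and Fto in their response was itself not tested. Igf2bp2, an mRNA-stabilizing protein linked to m6A, counted 47, 45, 58 and 47 against 52, 42, 41 and 39. Its log2 fold change of -0.18 had a 95% confidence interval of -0.48 to 0.12 (limma adjusted p = 0.557), and the groups overlapped.

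Mettl16 was the only other N6-adenosine methyltransferase to pass. METTL16 works outside the METTL3 complex, on the U6 small nuclear RNA and on hairpins of the Mat2a mRNA, whose product makes the methyl donor. Mettl16 (ENSMUSG00000010554, chr11:74661656-74719351, plus strand) counted 220, 236, 236 and 234 in WT hearts and 268, 259, 263 and 279 in Mettl3 KO hearts. The groups were apart, with a log2 fold change of 0.21 and a standard error of 0.06 (limma adjusted p = 0.0418). This call was close to the threshold and was lost in 14 of 19 alternative settings, including every fit with 7 hearts. Mettl5 and its partner Trmt112, Zcchc4 and Mettl4, which methylate ribosomal RNA or small nuclear RNA, did not pass, with log2 fold changes of -0.09 to 0.09 (limma adjusted p of 0.579 to 0.953).

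Among tRNA methyltransferases of the Trmt family, 4 of 15 members passed, 3 higher and 1 lower, beside 10% of protein-coding genes. They included the largest rise of all passing members, that of Trmt12, and Trmt12 together with Trmt5 belong to one tRNA pathway. Trmt12 (ENSMUSG00000037085, chr15:58744523-58748976, plus strand) encodes the transferase that adds a side chain to the wybutosine precursor beside the anticodon of phenylalanine tRNA. Its normalized read counts were 28, 28, 24 and 35 in WT hearts and 61, 55, 59 and 42 in Mettl3 KO hearts. All 4 Mettl3 KO hearts were above the highest WT heart, with heart 4 nearest to it. The mean was 189% of WT and the log2 fold change 0.89 with a standard error of 0.16 (limma adjusted p = 0.0011).

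Trmt5 (ENSMUSG00000034442, chr12:73326785-73333484, minus strand) methylates the guanosine beside the anticodon in cytosolic and mitochondrial tRNA, the first step toward wybutosine in phenylalanine tRNA. It counted 183, 159, 196 and 148 in WT hearts and 245, 252, 236 and 197 in Mettl3 KO hearts. The lowest Mettl3 KO heart, heart 4, stood only just above the highest WT heart. On the log2 scale the rise was 0.44 with a standard error of 0.09 (limma adjusted p = 0.00323).

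Trmt10c (ENSMUSG00000044763, chr16:55852972-55858182, minus strand) encodes the methyltransferase subunit of mitochondrial ribonuclease P, which cuts tRNA out of the mitochondrial primary transcript. It counted 114, 121, 133 and 127 in WT hearts and 171, 163, 173 and 144 in Mettl3 KO hearts. Again heart 4 was the lowest of the Mettl3 KO hearts and still above all WT hearts, and the log2 fold change was 0.39 with a standard error of 0.08 (limma adjusted p = 0.00471).

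In the opposite direction moved Trmt2b (ENSMUSG00000067369, chrX:133123088-133177733, minus strand), the mitochondrial uridine methyltransferase. It counted 300, 286, 320 and 297 in WT hearts and 251, 253, 248 and 250 in Mettl3 KO hearts. The Mettl3 KO hearts were tightly grouped, all below the lowest WT heart. The corresponding log2 fold change was -0.26 with a standard error of 0.06 (limma adjusted p = 0.00736), and with the atrial level as a covariate it was -0.21 with a standard error of 0.09 (adjusted p = 0.243).

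The remaining 11 Trmt genes had log2 fold changes between -0.24 and 0.29 and did not pass (limma adjusted p of 0.301 to 0.945). Trmt44 was named after its values were seen, because its groups did not overlap. It counted 34, 31, 29 and 33 against 38, 39, 36 and 43, with a log2 fold change of 0.29 (limma adjusted p = 0.301).

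Cdk5rap1 fell as well. CDK5RAP1 adds a methylthio group to an adenosine beside the anticodon of mitochondrial tRNA, whereas ELP3 is the catalytic subunit of Elongator, which modifies wobble uridines in the cytosol. Cdk5rap1 (ENSMUSG00000027487, chr2:154177300-154214930, minus strand) counted 90, 117, 101 and 101 in WT hearts and 88, 80, 60 and 60 in Mettl3 KO hearts. Mettl3 KO heart 1 came close to the lowest WT heart, and the groups did not overlap. The log2 fold change was -0.51 with a standard error of 0.13 (limma adjusted p = 0.0128). The adjusted p was 0.0711 without Mettl3 KO heart 3, 0.0649 without Mettl3 KO heart 4 and 0.0659 without WT heart 2. With the atrial level as a covariate the log2 fold change was -0.24 (adjusted p = 0.551). Elp3 had a log2 fold change of -0.06 (limma adjusted p = 0.667).

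**Figure D3:**
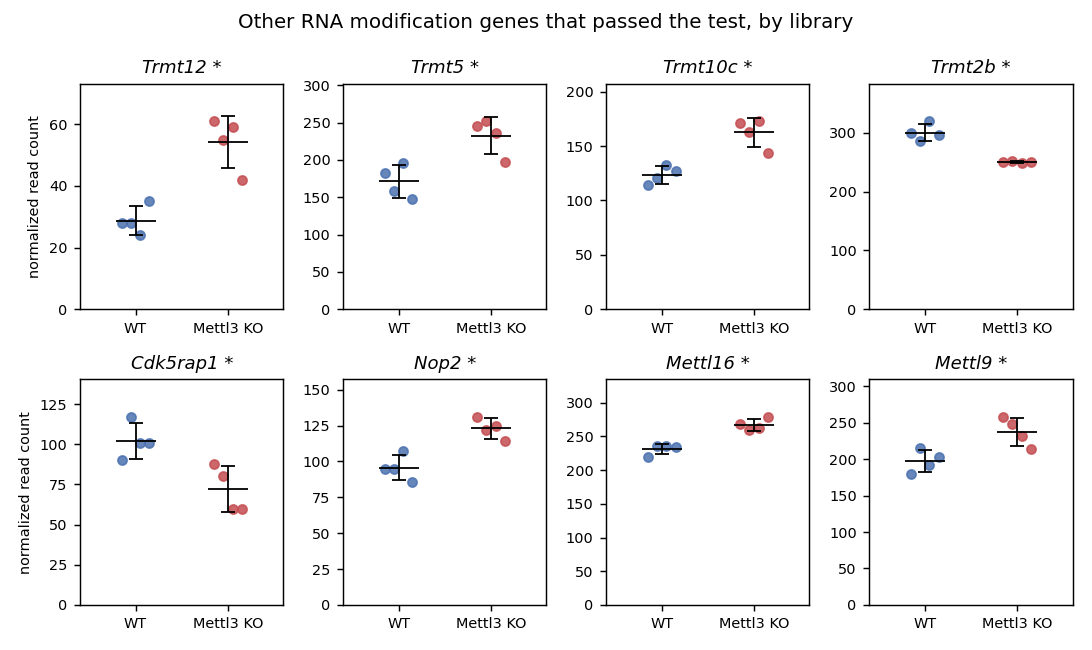
Normalized read counts (vertical axes, starting at 0) of the 8 passing members outside the writer complex and the demethylases, in each WT and Mettl3 KO heart; points are hearts, the long bar is the mean and the whiskers are 1 SD (n = 4 per group). Trmt12 shows the widest gap in proportion to its level, and Mettl9 is the only 1 of the 8 whose groups overlap.

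Among the RNA cytosine-5 methyltransferases only Nop2 passed, 1 of 6, beside 10% of protein-coding genes. NOP2, also called NSUN1, methylates the large ribosomal RNA and is needed for ribosome assembly in the nucleolus. Nop2 (ENSMUSG00000038279, chr6:125108872-125121716, plus strand) counted 95, 95, 107 and 86 in WT hearts and 131, 122, 125 and 114 in Mettl3 KO hearts. Mettl3 KO hearts were all above WT hearts, with a log2 fold change of 0.36 and a standard error of 0.09 (limma adjusted p = 0.0177). The adjusted p was 0.0593 without Mettl3 KO heart 3 and 0.0641 without WT heart 4. With the atrial level as a covariate the log2 fold change was 0.54 with a standard error of 0.14 (adjusted p = 0.022). The other 5 enzymes, among them Nsun2 of tRNA and Nsun3 of mitochondrial methionine tRNA, lay between -0.18 and 0.30 (limma adjusted p of 0.353 to 0.912).

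Of the 12 Mettl proteins that methylate proteins or have no settled RNA substrate, Mettl9 alone passed (8.33%, beside 10% of protein-coding genes). METTL9 is a histidine methyltransferase of proteins, so this gene belongs to the group by name and not by a known RNA target. Mettl9 (ENSMUSG00000030876, chr7:120633668-120677552, plus strand) counted 180, 216, 192 and 203 in WT hearts and 258, 248, 232 and 214 in Mettl3 KO hearts. Mettl3 KO heart 4 fell below WT heart 2, so the groups overlapped. The log2 fold change was 0.27 with a standard error of 0.08 (limma adjusted p = 0.0323). Leaving out any of 6 of the 8 hearts lost this call, as did the replicate block (adjusted p = 0.0568). With the atrial level as a covariate the log2 fold change was 0.37 with a standard error of 0.11 (adjusted p = 0.0682).

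The other groups held no member that passed. The most abundant gene of each is given here. Alkbh8, a tRNA wobble methyltransferase with an AlkB domain, counted 210, 207, 215 and 200 against 216, 225, 216 and 204, a log2 fold change of 0.05 (95% confidence interval -0.09 to 0.19, limma adjusted p = 0.761). Adarb1, the adenosine deaminase that edits glutamate receptor mRNA, counted 270, 259, 292 and 249 against 290, 270, 257 and 268, a log2 fold change of 0.02 (-0.12 to 0.16, adjusted p = 0.917). Both genes overlapped between genotypes.

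Nsun4, which methylates mitochondrial ribosomal RNA, counted 155, 143, 152 and 150 in WT hearts and 163, 150, 127 and 168 in Mettl3 KO hearts. The spread was wider in Mettl3 KO hearts, on both sides of the WT values, and the log2 fold change was 0.01 (95% confidence interval -0.17 to 0.19, limma adjusted p = 0.969). Mettl6, a tRNA cytidine methyltransferase, counted 109, 98, 103 and 98 against 113, 103, 112 and 127, a log2 fold change of 0.15 (95% confidence interval -0.04 to 0.34, limma adjusted p = 0.384). Its groups overlapped.

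Dkc1, the pseudouridine synthase of the H/ACA particles and of telomerase, counted 126, 135, 125 and 144 against 99, 124, 132 and 136, a log2 fold change of -0.12 (95% confidence interval -0.32 to 0.09, limma adjusted p = 0.571). Fbl, the ribose methyltransferase of the nucleolus, counted 37, 36, 36 and 38 against 29, 34, 30 and 38, a log2 fold change of -0.17 (95% confidence interval -0.49 to 0.16, limma adjusted p = 0.619). Both overlapped between genotypes. With the atrial level as a covariate the log2 fold change of Dkc1 was -0.40 (adjusted p = 0.0933). An unadjusted p under 0.05 without passing the adjustment was found for 3 members, named here after their values were seen. These were Mettl18 with a log2 fold change of 0.57, Mettl7a1 with 0.24 and Pus7 with 0.25 (limma adjusted p of 0.101, 0.106 and 0.23). Mettl7a1 passed without WT heart 3 and in no other setting. It belongs to a family of similar genes. Multi-mapping reads were discarded, so reads that fit several of these genes equally were not counted, and the effect on its values was not tested.

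Genes of the same processes that the name rule does not take were counted beside the members. Of 72 such genes, 4 passed (5.56%, against 10% of protein-coding genes), all higher in Mettl3 KO hearts (6.36% of protein-coding genes were higher and 3.65% lower). They were Mrm3, a mitochondrial ribosomal RNA ribose methyltransferase, Lcmt2, the wybutosine methyltransferase, Thumpd1, the adaptor of tRNA cytidine acetylation, and Mepce, which caps the 7SK RNA. Mrm3 counted 64, 73, 63 and 73 in WT hearts and 129, 102, 97 and 97 in Mettl3 KO hearts. Those groups lay well apart, with a log2 fold change of 0.62 (limma adjusted p = 0.000859). Lcmt2 counted 51, 57, 51 and 58 against 85, 73, 74 and 86, likewise apart, with a log2 fold change of 0.54 (limma adjusted p = 0.00408). Thumpd1 and Mepce had log2 fold changes of 0.33 and 0.41 (limma adjusted p of 0.00663 and 0.00783).

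Members and these neighbouring genes were then set side by side along 2 pathways, both put together after the values were seen and so not tested. Their counts stand beside 10% of protein-coding genes called, 6.36% higher and 3.65% lower, and are a description only. Of the 6 genes of the wybutosine pathway, the first methyltransferase Trmt5, the side chain transferase Trmt12 and the final methyltransferase Lcmt2 passed as higher. Tyw1, Tyw3 and Tyw5, which stand for the steps between and after, had log2 fold changes of -0.03, -0.17 and 0.09 and did not pass. Of 11 members that act on mitochondrial RNA, Trmt10c and Trmt5 passed as higher and Trmt2b and Cdk5rap1 as lower, and the other 7 lay between -0.18 and 0.12. Of 11 further genes that act on mitochondrial RNA, Mrm3 alone passed.

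What the passing members shared in gene structure was read from the GENCODE M21 annotation of GRCm38, matched by gene identifier for all 75 members and 99.5% of protein-coding genes tested. This reading was also made after the values were seen. The 8 members that rose had a median of 5 exons, and the 3 that fell had 14. Among all protein-coding genes the same medians were 6 for those called higher, 13 for those called lower and 9 for those not called. Trmt12 is a single-exon gene and Trmt10c has 2 exons, Alkbh5 4, Mettl9 and Trmt5 5 each, Wtap 8, Mettl16 11 and Nop2 16. On the side of those that fell, Mettl3 has 11 exons, Trmt2b 14 and Cdk5rap1 15.

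The 9 members with 1 to 3 exons had a median log2 fold change of 0.24, and 9 of 9 were positive. Among all protein-coding genes with 1 to 3 exons, 1238 of 1983 were positive. The 22 with 4 to 6 exons had a median of 0.05, the 28 with 7 to 12 a median of 0.03 and the 16 with 13 or more a median of -0.07. The same order was present in protein-coding genes as a whole, with medians of 0.10 over 1983 genes, 0.04 over 3127, -0.00097 over 4487 and -0.02 over 4725. There, 11.2% of genes with 1 to 3 exons were called higher and 2.32% lower, against 4.93% higher and 5.97% lower with 13 or more exons. The members' order is therefore a description and not particular to RNA modification genes. Over 19 alternative settings the median of the 9 members with fewest exons ranged from 0.16 to 0.45, and the number of them above 0 was 8 without WT heart 4, without Mettl3 KO heart 1 and with the atrial level as a covariate, and 6 with the fibroblast level. The median of the 16 members with 13 or more exons ranged from -0.09 to 0.02 and was above 0 with the fibroblast level alone.

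**Figure D4:**
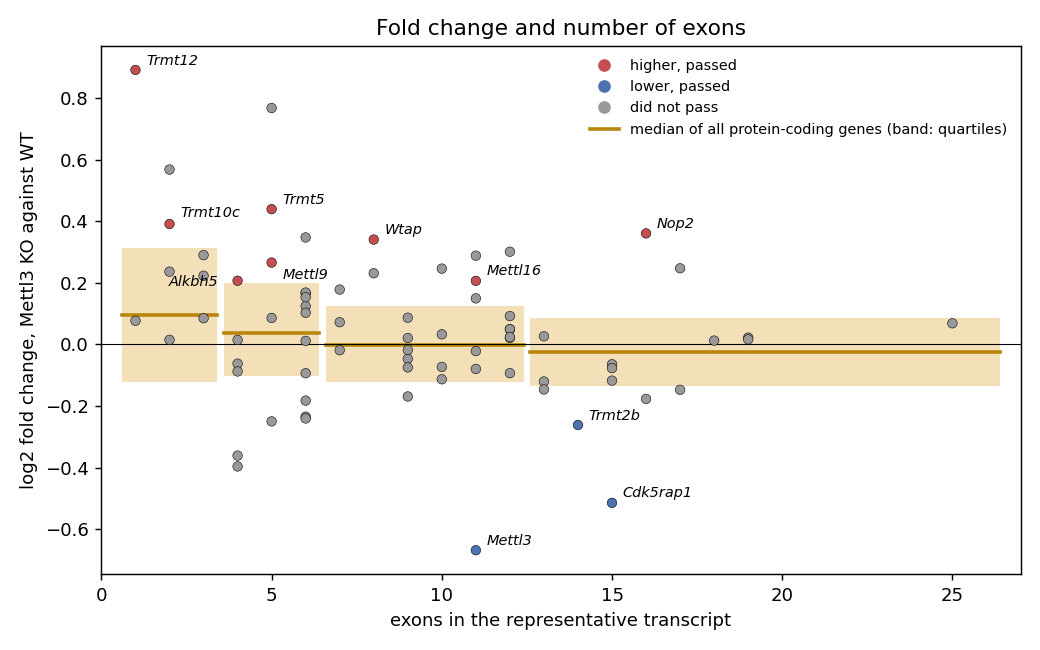
Log2 fold change in Mettl3 KO against WT hearts (vertical axis) of each member against its number of exons (horizontal axis), with the median and the middle 50% of all protein-coding genes in 4 exon classes drawn as bands. Members with 1 to 3 exons all lie above 0, as does the median of all genes of that class.

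The core letters most often given for m6A sites, GGACT in DNA letters, were searched on the sense strand alone. They occurred in the coding sequence of 60 of 75 members (80%) and of 77.0% of all protein-coding genes tested. Among the members they occurred in 7 of the 8 that rose, in 3 of the 3 that fell and in 50 of the 64 others. Per kilobase of transcript the members' medians were 1.38 for those that rose, 1.98 for those that fell and 1.05 for the others. Over all protein-coding genes the same medians were 1.07, 1.05 and 1.05. With so few members called, this difference is a description and was not tested. Trmt10c, which rose, has none in its coding sequence but 3 in its transcript as a whole. m6A itself was not measured in these libraries, and a match is a run of letters and not a site.

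For orientation, the 25-base coding window around the GGACT nearest the end of the coding sequence is shown for the deleted gene, for the passing writer Wtap and for the members with the largest rise and the largest fall apart from Mettl3, in GRCm38 coordinates and 5′ to 3′ on the gene's strand with the motif in capitals. The windows lie at chr14:52296526-52296550 (minus strand, exon 9 of 11) for Mettl3, chr17:12967490-12967514 (minus strand, exon 8 of 8) for Wtap, chr15:58873262-58873286 (plus strand, exon 1 of 1) for Trmt12 and chr2:154342305-154342329 (minus strand, exon 14 of 15) for Cdk5rap1.
Mettl3: accagggcctGGACTgcgatgtgat
Wtap: agaatggcttGGACTcaaatgtaaa
Trmt12: ctacctgatgGGACTcgaactccgt
Cdk5rap1: ctcaacctggGGACTatgtgctggt
The bases around the motif differ among the 4 genes. The Wtap motif ends 29 bases before the end of the coding sequence. Genes that rose and genes that fell both hold the motif.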

How the data were processed

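Total RNA of 4 WT and 4 Mettl3 KO hearts was sequenced as stranded single-end reads of 72 nt. According to the study's methods and the submitters' processing notes, the authors trimmed reads with Trimmomatic 0.39, used STAR 2.7.11a to align them to mm39, removed duplicates with Picard 3.1.1, discarded multi-mapping, ribosomal and mitochondrial reads, assigned the remaining reads to genes by strand using featureCounts 2.0.4 and scaled them with DESeq2 1.36.0. The deposited values are a score for each gene, namely normalized read counts that the authors rounded to whole numbers. Raw counts were not used here, so no count model was run. Removal of duplicates lowers abundant genes more than scarce ones.

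Values were transformed as log2(value + 1), a scale that understates fold changes of low genes. Genes with a mean of at least 1 were tested with limma 3.58.1 in R 4.3.3 (trended variance, two-sided), with Benjamini-Hochberg adjustment over all genes tested at a threshold of 0.05. Data were also simulated for this comparison (19666 genes, 200 changed by 1 on the log2 scale, dispersion fixed at 0.005). The fit recovered 59.5% of the changed genes and 95.5% of the 110 with a mean of at least 20, and 2.46% of its calls were false. Absolute log2 fold changes of the passing members were smaller, 0.21 to 0.89, so these rates do not carry over to them.

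The members and all gene lists were chosen with earlier results of these data known. Members named with all values were the writer complex, Mettl16, Fto, Alkbh5, Igf2bp2, every member that passed, and the most abundant member of each role group in which none passed. Trmt44 was added after its values were seen. All 8 libraries entered every main value. The labels do not say that the hearts were independent beyond their numbers, and p-values measure the spread between these samples. Deviations of libraries with the same number correlated at 0.052, 0.042, -0.041 and 0.088 across genes, so the numbers were not taken as pairs. Libraries of 1 group differed by more than counting noise (chi-square per degree of freedom 1.12 to 1.95, between groups 2.3 to 3.19). Counting and rounding error are not shown separately. Alternatives were other pseudocounts, filters and scalings, voom, array weights, a replicate block, leaving out each library and marker levels as covariates. Exon numbers and motif letters came from GENCODE M21 on GRCm38, and promoters were looked at but are not reported.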

Additional observations from a re-analysis of the deposited data

Results flagged for a closer look

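In 2 groups of 4 hearts a named member had 1 heart far from the other 3, by a gap of more than 0.829 of the group's whole range. Mettl16 in WT hearts had a ratio of 0.875, with heart 1 at 220 and the others at 234 to 236. Igf2bp2 in WT hearts had a ratio of 0.846, with heart 3 at 58 and the others at 45 to 47. Of 52 groups looked at, chance alone would give about 2.6.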

How the results depend on the processing

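Leaving out 1 heart at a time gave 6 to 10 members called and 1019 to 1596 genes called, the lowest of both without Mettl3 KO heart 3. That fit tests fewer samples. The atrial level overlapped between the genotypes only through Mettl3 KO heart 1. With the atrial level as a covariate 6 members and 913 genes were called, Wtap, Mettl9, Mettl16, Cdk5rap1 and Trmt2b being lost. The log2 fold change was then -0.64 for Mettl3, 0.27 for Alkbh5 and 0.54 for Nop2. It was 0.55 for Trmt10c, 0.95 for Trmt12, 0.65 for Trmt5, 0.37 for Mettl9 and 0.22 for Mettl16. With the fibroblast level, which is inseparable from genotype here, 0 members and 12 genes were called. Of these genes 33.3% were higher, against 59.6% of the calls reported. The cause was not tested. With the replicate block 9 members were called, Mettl9 (adjusted p = 0.0568) and Mettl16 (adjusted p = 0.0671) being lost, and 1346 genes. Upper-quartile scaling, quantile normalization and voom each lost Mettl16 and no other member. Mettl3, Trmt12, Trmt5 and Trmt10c passed in 18 of 19 alternatives each, the exception being the fibroblast level.

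Changes of direction were confined, among the named members, to the following. Under the atrial level the log2 fold change was -0.16 for Rbm15b, -0.13 for Zc3h13, -0.0697 for Cbll1 and 0.18 for Igf2bp2. Under the fibroblast level it was -0.12 for Virma, -0.0882 for Rbm15b, 0.0208 for Cdk5rap1, -0.0807 for Adarb1, -0.16 for Mettl6, -0.0558 for Nsun4 and 0.0576 for Dkc1. Nsun4 was at -0.0014 with array weights. With 1 heart left out, Nsun4 ranged from -0.0391 to 0.0945, Zc3h13 from -0.0157 to 0.0698, Adarb1 from -0.0123 to 0.0640 and Fto from -0.0767 to 0.0035. The cause was not tested. At this depth the 95% interval of the log2 fold change had a median half-width of 0.79 for members with a mean under 20.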
